A study of Mus musculus with 4 samples.

Results

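The sites described here are 552 positions inside B4 elements of the mouse genome (build mm10) at which RNA of lung endothelial cells (ECs) carried an A-to-G change on the strand of the gene. They were selected on their measured values: a site counted as a member if the deposited table placed it in a repeat of class SINE and family B4 and if, in at least 1 of 4 libraries, 5 or more reads covered it, 3 or more of them carried the altered base, and the editing rate lay between 0.05 and 0.95. The editing rate is the share of reads with the altered base. By these thresholds 24200 sites of the whole table passed, of which 8407 lay in SINEs, 5136 of them in B1 elements and 2595 in B2 elements. The members fell in 445 elements, annotated to 326 genes.

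ECs were cultured from the lungs of 2 mice (EC1 and EC2), labelled as male, C57/BL6 and 2 weeks old, from independent litters, of an inducible ADAR1 knockout model that the labels call EC-specific; for these inducible mice the driver of the Cre is not given in the sources used here. From each mouse, 1 culture was treated with 4-hydroxytamoxifen (TM) to induce the deletion and 1 was left untreated (CON), so each group held 2 libraries and both groups carried the same alleles. The untreated cultures received no tamoxifen, and no tamoxifen-treated culture without the floxed gene was analysed here, so the drug and the deletion cannot be told apart. Runs of 4 values below are always ordered as CON then TM of EC1, followed by CON then TM of EC2. Cells had been selected on CD31 and then on ICAM-2 beads.

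B4 elements are short interspersed repeats of rodents in which a tRNA-derived ID-like part is joined to a B1-like part. The names ID_B1, RSINE1, B4A and B4 are given to groups of copies within the family. When 2 copies in opposite orientation lie in the same transcript they can fold into double-stranded RNA, the substrate of ADAR1, which converts adenosine to inosine. Inosine is read as guanosine, and endogenous duplexes that are left unedited are known to engage the RNA sensor MDA-5.

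The sequences around 5 of the 7 sites with the clearest difference between CON and TM are given first, since the rates described afterwards refer to these bases. Each is 29 bases of the strand of the gene, 5′ to 3′, read from GENCODE vM21 transcripts on mm10, and the capital marks the edited adenosine. All 5 lie in 3′ UTRs.
Mmgt1, ID_B1, chrX:56587629-56587657, minus strand: ccgtgtcagtgctaAgattataggtgctg
Cbfa2t2, ID_B1, chr2:154537916-154537944, plus strand: atcctctaacacttAggaggtagaagcag
Prrg4, B4A, chr2:104831347-104831375, minus strand: accttggtttatatAgctagttccaggac
Slc35e1, ID_B1, chr8:72482656-72482684, minus strand: gttctctacaaagtAagttccagaccagc
Xbp1, ID_B1, chr11:5525544-5525572, plus strand: atgtagccgaggctAggcagaaacttctg

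As examples, 3 whole elements outside UTRs follow, 1 with several low-rate sites in an intron, 1 with an intronic site that was higher in CON in both mice, and 1 with a site that was higher in TM in both mice. Capitals again mark the member sites.
Med15, RSINE1, chr16:17678469-17678600, minus strand: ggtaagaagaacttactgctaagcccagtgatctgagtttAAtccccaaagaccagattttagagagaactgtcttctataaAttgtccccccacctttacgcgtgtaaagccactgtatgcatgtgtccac
Copa, RSINE1, chr1:172091743-172091850, plus strand: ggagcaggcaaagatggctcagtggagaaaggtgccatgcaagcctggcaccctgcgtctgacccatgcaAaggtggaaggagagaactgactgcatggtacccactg
B230319C09Rik, B4A, chr6:83448107-83448313, plus strand: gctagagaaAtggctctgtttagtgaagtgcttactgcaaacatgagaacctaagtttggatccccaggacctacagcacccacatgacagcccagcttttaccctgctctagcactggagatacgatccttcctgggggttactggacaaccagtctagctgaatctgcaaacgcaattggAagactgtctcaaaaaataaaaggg

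Of the 552 members, 109 lay in an exon of a GENCODE transcript, and all 109 were an adenosine on the strand of the gene. ADAR enzymes are known to disfavour a guanosine just before the edited base. Among these 109 sites, G preceded the edited A at 12 (11.0%, 95% Wilson interval 6.41 to 18.3%), against 810 of 3099 other adenosines of the same elements (26.1%, 24.6 to 27.7%). T preceded it at 38 (34.9%, 26.6 to 44.2%), against 17.4% of the other adenosines (16.1 to 18.8%). In 3′ UTRs the preceding base was T at 21 of 43 sites (48.8%, 34.6 to 63.2%) and G at 3 (6.98%, 2.40 to 18.6%). Outside 3′ UTRs it was T at 17 of 66 (25.8%, 16.7 to 37.4%) and G at 9 (13.6%, 7.34 to 23.9%). The base after the edited A was G at 40 of 109 (36.7%, 28.2 to 46.1%), with an interval that includes the 33.8% of the other adenosines. These intervals cover counting error only, and sites of 1 element share their sequence.

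The libraries held between 131796753 and 207323870 counted reads. Only 0.823 to 0.858% of these were assigned to genes, so the gene counts give a coarse view. They did not follow coverage at every site described below: 6430706D22Rik had a gene count of 0 in all 4 libraries, with 69 to 137 reads at its site. The count of Adar over the whole gene was 9 and 47 in CON and TM of EC1 and 16 and 71 in those of EC2. It was thus higher in both libraries labelled TM, and it does not separate the deleted exons from the rest, so it does not check the deletion; CON and TM name libraries by their labels throughout. The 12 endothelial markers summed to between 1569 and 2768 counts per library, with 10 above 0 in all 4 and Vwf at 2, 0, 2 and 0. The 6 leukocyte markers summed to 39 to 70. Most of this came from Cd79a at 35, 23, 29 and 31 and Cd68 at 19, 17, 10 and 39, while Ptprc was at 1, 1, 0 and 0. The 7 markers of fibroblasts and smooth muscle summed to 68 to 90, and the 5 of epithelium to 3 to 15.

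The number of B4 sites that passed was 275 in CON and 210 in TM of EC1, against 252 in CON and 282 in TM of EC2. Their share of all sites that passed in the same library was nearly even, from 2.21% in EC1 TM to 2.37% in EC2 CON. EC2 TM was also the most deeply sequenced library: per 1000000 counted reads it had the fewest passing B4 sites, 1.36, against 2.07, 1.59 and 1.76 in the other libraries. Most sites were thinly covered. The median depth at passing sites was 13 to 15 reads, and between 63 and 74 sites per library passed with exactly 3 altered reads.

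Few members passed throughout: 280 passed in 1 library, 150 in 2, 49 in 3 and 73 in all 4. In EC1 alone 168 passed, in EC2 alone 211 and in both mice 173. The table lists a site for a library only where it has an altered read there, and 240 members were listed in all 4 libraries. A site that is not listed has an unknown depth.

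ID_B1 was the most frequent name, with 201 sites, followed by RSINE1 with 170, B4A with 113 and B4 proper with 68. Set against the B4 rows of the table, passing or not, the members were 3.10% of ID_B1, 3.21% of RSINE1, 2.33% of B4A and 2.33% of B4 rows. By gene annotation 385 sites (69.7%) were intronic, 57 (10.3%) lay in 3′ UTRs, 51 in 3′ distal, 34 in 5′ distal, 14 in downstream regions, 8 in exons and 3 in promoters. Introns held 65.2% of B1 and 69.2% of B2 sites, and 3′ UTRs held 15.7% of B1 and 5.66% of B2 sites. Members were on the strand of the gene at 305 sites (55.3%), close to the share in all listed B4 rows (55.6%).

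Editing rates differed between introns and 3′ UTRs within every library. Intronic B4 sites that passed had median rates of 0.444, 0.438, 0.5 and 0.5. In 3′ UTRs the medians were 0.143, 0.166, 0.174 and 0.141. Rates from 0.4 to below 0.7 made up 50.9 to 57.4% of intronic and 7.41 to 20% of 3′ UTR sites, and rates below 0.2 made up 8.59 to 13.2% and 59.0 to 74.1%. The rates entered the selection of the sites, so this is a description without a test. Coverage differed as well, with median depths of 8 to 11 reads at intronic and 36 to 49 at 3′ UTR sites that CON and TM of a mouse both list, and the lowest rate that 3 altered reads allow falls with depth.

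**Figure D1:**
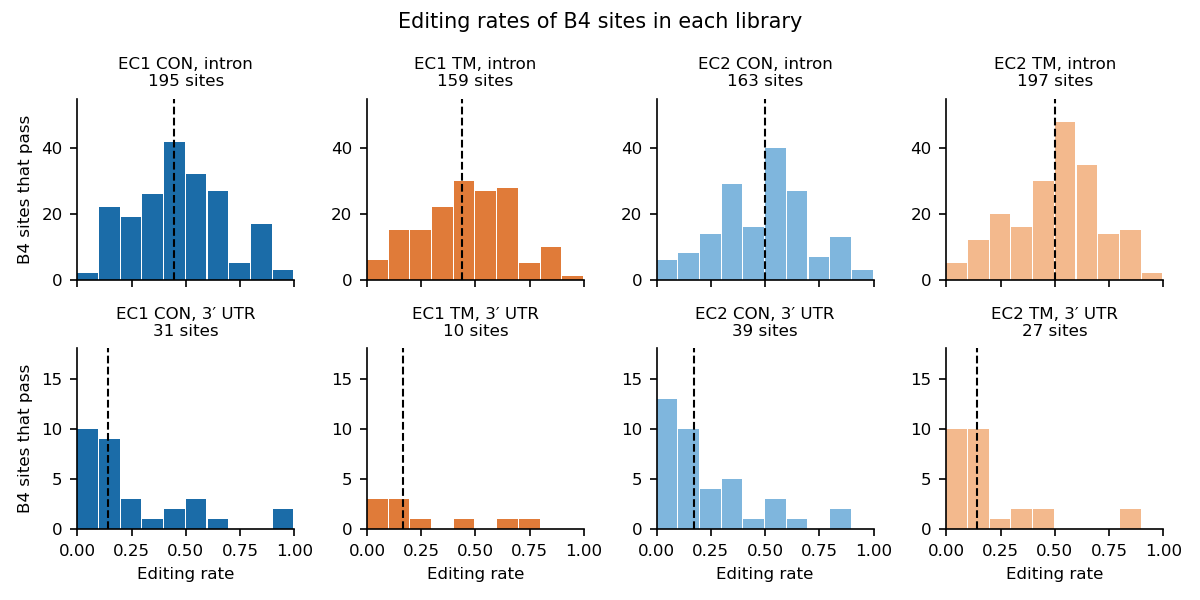
Histograms of the editing rate (x axis, share of altered reads) of B4 sites that pass in each library, for introns (top row) and 3′ UTRs (bottom row); the y axis counts sites and the dashed line is the median. Intronic medians sit between 0.438 and 0.5, those of 3′ UTRs between 0.141 and 0.174.

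At the edges of the selection, 612 B4 rows outside it met the depth and rate limits with 2 altered reads, 56 had a rate below the lower limit (the highest was 0.0492), and 1141 had a rate above 0.95, from 0.980 to 1. Inside it, 157 members had 3 altered reads in their best passing library, the passing rates ran from 0.0508 to 0.940, and 40 members exceeded 0.95 in some library at a depth of at least 5. The 73 members that passed in all 4 libraries had median rates of 0.429, 0.391, 0.5 and 0.429, and 50 of them were intronic. Of these 73, 29 were higher in CON in both mice and 13 higher in TM in both. Whether intermediate or near-complete rates at some of these positions are base differences between the mice and the reference genome was not tested.

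The comparison of CON and TM cultures of the same mouse asked how far their B4 editing rates differed. Averaged over all members that passed in either library of the mouse, with unlisted values taken as 0, EC1 had a mean rate of 0.389 in CON and 0.364 in TM (341 sites), and EC2 one of 0.401 and 0.382 (384 sites). TM was lower by 0.0243 in EC1 and by 0.0192 in EC2, a mean difference of 0.0217 ± 0.00362 (SD, n = 2 mice). An exact paired permutation test with 2 mice cannot give a p below 0.5, so no test is given for means.

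Over all annotations, the difference between CON and TM was smaller in B4 than in B1 and B2 elements, in both mice. In B1 the mean rates were 0.276, 0.193, 0.280 and 0.210, and in B2 they were 0.306, 0.256, 0.337 and 0.294. The difference in B1 exceeded that in B4 by 0.0546 ± 0.00466 and that in B2 exceeded it by 0.0247 ± 0.00136 (SD, n = 2 mice). In introns the excess was 0.0620 and 0.0413 for B1 and 0.0340 and 0.0120 for B2, in EC1 and EC2. In 3′ UTRs the mice were not alike: in EC1 the difference in B1 was below that in B4 (B1 minus B4 was -0.0249) and that in B2 close to it (0.00314), while in EC2 both were above it, by 0.0698 and 0.130. These values take unlisted sites as 0. At 3′ UTR sites listed at a depth of at least 5 in both libraries, CON minus TM in EC1 and EC2 was 0.121 and 0.0923 for B4. It was 0.0892 and 0.117 for B1, and 0.115 and 0.160 for B2, so the gaps in EC2 were smaller. The 3 families share the libraries.

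Within B4, the difference was larger in 3′ UTRs than in introns. The 3′ UTR mean in EC1 was 0.246 in CON and 0.120 in TM (33 sites), and in EC2 it was 0.215 and 0.166 (49 sites). Of these sites 31 of 33 had the higher rate in EC1 CON and 36 of 49 in EC2 CON. Intronic means stayed close, at 0.419 and 0.404 in EC1 (247 sites) and 0.448 and 0.437 in EC2 (253 sites), with 129 intronic sites higher in EC1 CON and 110 higher in EC1 TM, and 126 and 116 in EC2. The difference in 3′ UTRs exceeded that in introns by 0.111 in EC1 and 0.0380 in EC2. When only sites listed at a depth of at least 5 in both libraries were used, CON minus TM was 0.121 (25 sites) and 0.0923 (33 sites) in 3′ UTRs, and 0.00808 (159 sites) and -0.000267 (165 sites) in introns.

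Rates used to choose sites can shift the means, so the same measure was also taken in the mouse that did not choose the sites. For 3′ UTR sites that passed in EC2, the mean in EC1 was 0.256 in CON and 0.131 in TM (38 sites, 32 higher in CON). For those that passed in EC1, the mean in EC2 was 0.199 in CON and 0.117 in TM (32 sites, 25 higher in CON). Intronic sites chosen in this way had a mean that was 0.00635 lower in TM in EC1 (170 sites) and 0.0273 lower in EC2 (202 sites).

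Over all annotations, elements with several editing sites also differed more between CON and TM than those with 1. The 2 groups differ in annotation: 3′ UTR sites were 23 of 126 and 35 of 139 sites with several, and 10 of 215 and 14 of 245 with 1, in EC1 and EC2. In elements with 2 or more member sites the mean was 0.338 and 0.286 in EC1 (126 sites) and 0.357 and 0.298 in EC2 (139 sites). In elements with a single member site it was 0.418 and 0.410 in EC1 (215 sites) and 0.426 and 0.429 in EC2 (245 sites). In 3′ UTR elements with 2 or more sites the means were 0.278 and 0.118 in EC1 with all 23 sites higher in CON. In EC2 they were 0.206 and 0.137, with 28 of 35 higher in CON. All 23 EC1 sites passed in CON and 7 in TM, and in EC2 30 passed in CON and 19 in TM. The selection thus partly set this direction, and it also sets the number of sites per element. At sites listed at a depth of at least 5 in both libraries the means were 0.286 and 0.140 in EC1 (17 sites). In EC2 they were 0.242 and 0.151 (27 sites). CON minus TM at these sites was 0.146 in EC1 and 0.0901 in EC2. In 3′ UTR elements with 1 site it was 0.0681 (8 sites) and 0.102 (6 sites), so the order of the groups was reversed in EC2. In introns it was 0.0254 and 0.0125 with several sites, and -0.00188 and -0.00550 with 1. By element name no order was shared by the mice: CON minus TM in EC1 and EC2 was 0.0461 and -0.00133 for ID_B1, -0.00228 and 0.0398 for RSINE1, 0.0416 and 0.0301 for B4A, and -0.000698 and 0.0185 for B4 proper.

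**Figure D2:**
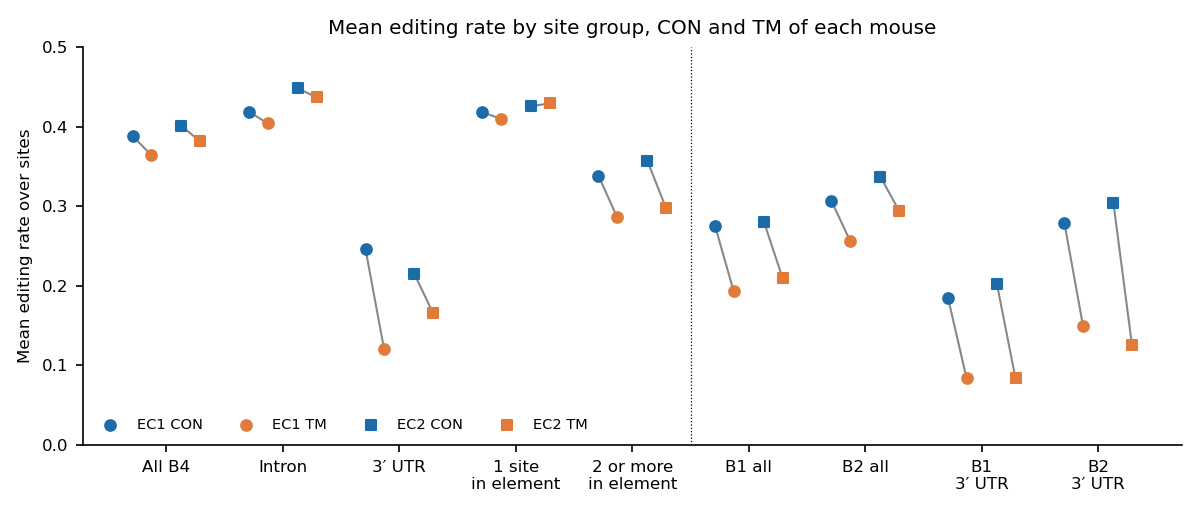
Mean editing rate (y axis) of B4 site groups, and of all and 3′ UTR sites of B1 and B2 to the right of the dotted line; circles are EC1, squares EC2, blue CON and orange TM, each point 1 library, with lines joining the libraries of 1 mouse. B4 in 3′ UTRs had means of 0.246 and 0.120 in EC1 and of 0.215 and 0.166 in EC2, while intronic B4 stayed between 0.404 and 0.448.

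Site by site, the rule of the study was applied, in which a site is CON > TM when its rate in CON passes the thresholds and exceeds that in TM by at least 0.05. In EC1 164 B4 sites were CON > TM and 93 were CON < TM, and in EC2 149 and 125. In both mice 48 were CON > TM (8.70% of members, against 7.35% of all 24200 sites) and 16 were CON < TM (2.90%, against 3.92%). A further 35 sites went opposite ways in the mice. The 48 shared sites were 29.3% of the EC1 list and 32.2% of the EC2 list. Both shares were close to those of the table as a whole.

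Annotation separated the shared sites. In 3′ UTRs 16 of 57 members (28.1%) were CON > TM in both mice and 0 were CON < TM, against 20.8% and 1.26% of all 3′ UTR sites of the table. Of the 57, 31 passed in CON and 10 in TM of EC1, and 39 and 27 in EC2, so the selection partly set this direction. Some of the 16, as at Prrg4, Ppp1r2 and Dtx3l, passed only in CON libraries, and several share a gene or an element. In introns 25 of 385 (6.49%) were CON > TM and 13 (3.38%) CON < TM, against 5.61% and 4.01% of all intronic sites. Elements with 2 or more member sites held 30 of the 48 CON > TM sites and 6 of the 16 CON < TM sites.

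**Figure D3:**
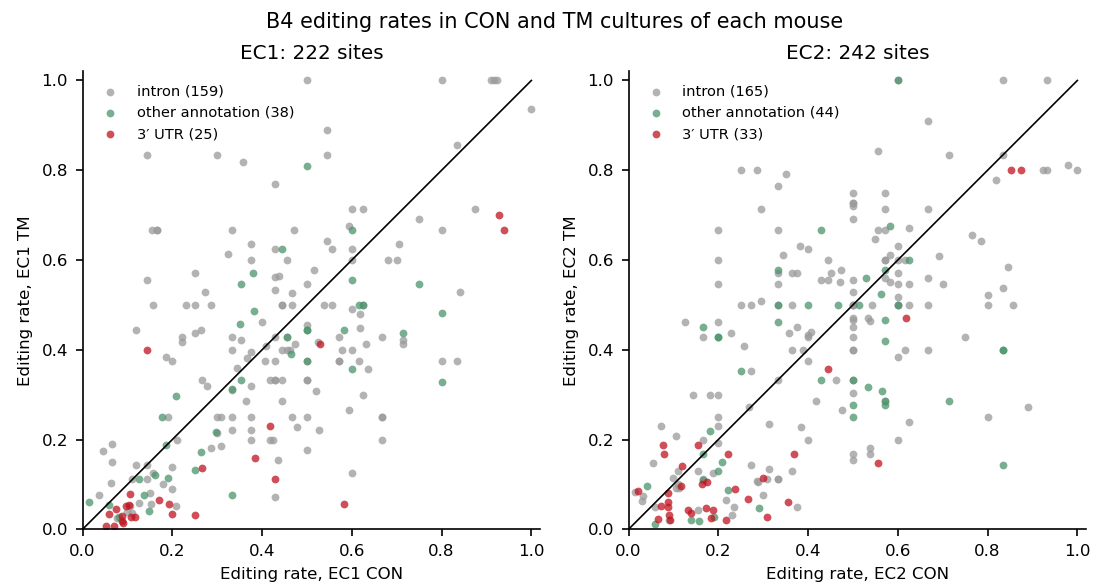
Editing rate in TM (y axis) against CON (x axis) for B4 sites listed at a depth of at least 5 in both libraries of the mouse, 222 in EC1 and 242 in EC2; the line marks equal rates and colours give the annotation. Points of 3′ UTRs lie mostly below the line at low rates, and intronic points lie on both sides of it.

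The replicated test compared altered with reference reads in TM and CON over both mice. It used edgeR's quasi-likelihood test, with mouse as a block and Benjamini-Hochberg adjustment. The 7407 sites tested had passed the thresholds in at least 1 library and had at least 5 reads in all 4. They were thus selected on the values tested. With the depth limit alone, 20243 sites were tested, and 1 B4 site was called lower and 0 higher. The test of the 7407 sites reached 145 of the 552 members. By adjusted p, 7 B4 sites (4.83% of those tested) were lower in TM and 0 were higher, against 5.05% and 0.365% of all sites tested; at an unadjusted p below 0.05 there were 24 lower and 2 higher. The median log2 odds ratio of TM over CON was -0.33 for B4 and -0.27 for all sites tested. These calls rest on the pairing by mouse. Without the block edgeR called 0 of the 145 B4 sites and 0 of all 7407, with 15 B4 sites lower and 0 higher at an unadjusted p below 0.05, and the 7 sites then had adjusted p values from 0.344 to 0.696. With the block the fit has 1 residual degree of freedom and a dispersion of 0.00450, against 0.138 without it, so its p-values are close to those of counting error alone. The exact Cochran-Mantel-Haenszel test on the same reads, stratified by mouse, called 6.

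All 7 called sites lay in 3′ UTRs, in 7 elements of 5 genes. Of the 24 3′ UTR members tested, which came from 15 elements of 13 genes, 23 were lower in TM and 1 higher, with a median log2 odds ratio of -1.62, and 7 were called (29.2%). In B1 elements of 3′ UTRs 137 of 460 sites were called lower (29.8%, median -1.32), in B2 elements 6 of 65 (9.23%, median -1.28), and among all 3′ UTR sites 217 of 1123 (19.3%, median -0.83). Intronic B4 sites split nearly evenly, 51 lower and 46 higher of 97, with a median of -0.08, and none was called by edgeR, with 8 lower and 2 higher at an unadjusted p below 0.05. Intronic B1 sites had a median of -0.45 over 1013 sites, with 17 called lower, and intronic B2 sites one of -0.47 over 451, with 4.

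Mmgt1, which encodes a subunit of the endoplasmic reticulum membrane complex, carried the lowest p. At its ID_B1 site 20 of 52, 6 of 38, 30 of 54 and 12 of 81 reads were altered. Both CON rates, 0.385 (95% Wilson interval 0.265 to 0.520) and 0.556 (0.424 to 0.680), were above both TM rates, 0.158 (0.0744 to 0.304) and 0.148 (0.0868 to 0.241). The log2 odds ratio was -2.42 with an edgeR adjusted p of 2.46e-05. Without the rate and altered-read filter Mmgt1 was the only B4 site called, with an edgeR adjusted p of 0.0282. The adenosine just before the capital in its sequence was altered in 10 of 52, 2 of 36, 9 of 55 and 8 of 79 reads and was not called.

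Slc35e1, a member of the solute carrier family of nucleotide sugar transporters, held 3 of the called sites in 3 separate elements of its 3′ UTR. In the RSINE1 copy at chr8:72478689-72478794, position 72478776 had 12 of 45, 3 of 22, 22 of 62 and 3 of 49 altered reads (log2 odds ratio -2.29, edgeR adjusted p = 0.00645). In the ID_B1 copy, position 72482670 had 37 of 217, 10 of 153, 56 of 321 and 40 of 376 (-1.05, adjusted p = 0.0176). The CON rates were above the TM rates of the same mouse at both positions. At 72480261 in the third, an RSINE1 copy, the counts were 2 of 29, 1 of 12, 13 of 42 and 1 of 37 (-2.75, adjusted p = 0.0437), and here the direction in EC1 was not that of EC2. This position passed the member thresholds only in EC2 CON, where its rate was highest. Without the rate and altered-read filter its edgeR adjusted p was 0.379.

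Prrg4 encodes a membrane protein with a Gla domain, and its B4A copy had 9 of 77, 2 of 74, 14 of 74 and 4 of 95 altered reads at the called position (log2 odds ratio -2.29, edgeR adjusted p = 0.00730). This position passed the member thresholds only in the 2 CON libraries, and without the rate and altered-read filter its edgeR adjusted p was 0.0871. Cbfa2t2, a transcriptional corepressor, had 8 of 32, 1 of 32, 13 of 49 and 5 of 74 (-2.52, adjusted p = 0.00400). In both genes the 2 CON rates were above the 2 TM rates. Xbp1, a transcription factor of the unfolded protein response, was the most deeply covered, with 24 of 276, 7 of 392, 31 of 431 and 29 of 550 (-1.11, adjusted p = 0.0346). TM was at 7 of 392 in EC1 but at 29 of 550 in EC2, and whether the mice differ was not tested.

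**Figure D4:**
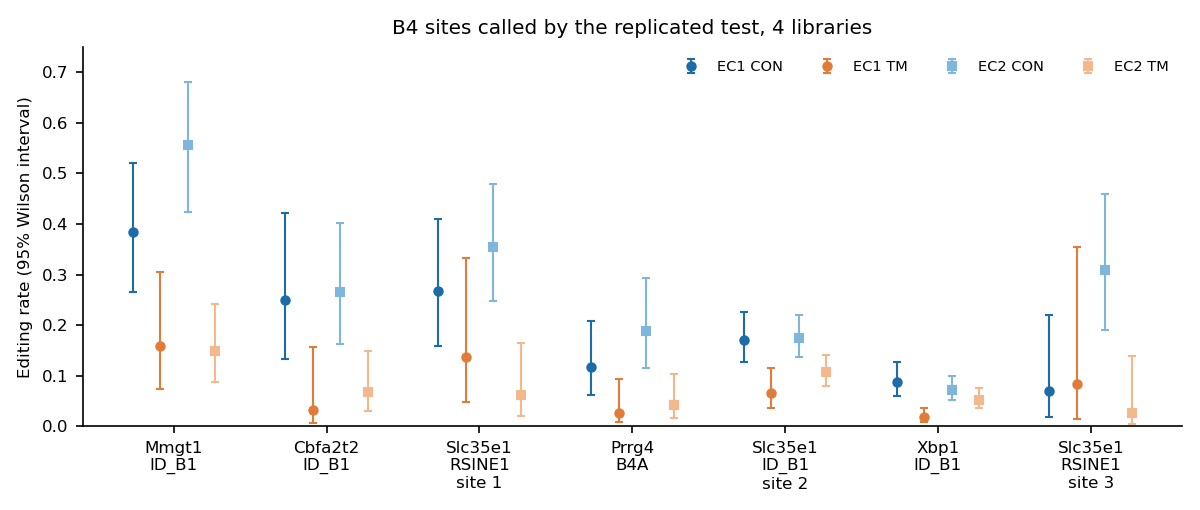
Editing rate (y axis) with 95% Wilson intervals for the 7 B4 sites called by the replicated test, 1 point per library (circles EC1, squares EC2, blue CON, orange TM); the intervals cover counting error only. At 6 of the 7 sites both mice had the higher rate in CON, and the exception is the third Slc35e1 site.

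Tested in 1 mouse at a time with Fisher's exact test on reads, two-sided and adjusted over all sites of that mouse, 2 of 222 B4 sites were lower in TM in EC1 (0.898% of all 9800 sites were) and 4 of 242 in EC2 (2.37% of 10402). None was higher in TM by this test, where 0.0612% and 0.0865% of all sites were; at an unadjusted p below 0.05 there were 10 lower and 5 higher in EC1, and 20 and 5 in EC2. Such a test compares the 2 libraries. The sites tested had passed the thresholds in CON or TM of that mouse, so they were selected on the values tested. Its 6 calls were all in 3′ UTRs, at Xbp1 and Dtx3l in EC1 and at Mmgt1, Ppp1r2 and 2 Slc35e1 positions in EC2. Ppp1r2, which encodes an inhibitor of protein phosphatase 1, had 16 of 142 altered reads in CON of EC1, where TM was not listed. In EC2 it had 29 of 167 in CON and 6 of 129 in TM (Fisher's exact test, adjusted p = 0.0384). This position passed the member thresholds only in the 2 CON libraries, where its rate was highest.

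Dtx3l, an interferon-inducible ubiquitin ligase, had a lower rate in TM together with more reads. At its ID_B1 site 8 of 40 reads were altered in EC1 CON and 19 of 548 in EC1 TM (Fisher's exact test, adjusted p = 0.0246), and 7 of 90 in EC2 CON, with no listed read in EC2 TM. The gene count of Dtx3l was also higher in TM in both mice, at 101, 550, 132 and 935. Such counts did not follow site coverage at every host: Mmgt1 had counts of 0, 0, 2 and 2, with 38 to 81 reads at its called site. The number of altered reads in EC1 was thus higher in TM while the share was lower. The Dtx3l site passed the member thresholds only in the 2 CON libraries, so its direction was partly set by the selection. Dtx3l was named after its values were seen.

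Several of the sites with the most altered reads in CON were not called by edgeR. Fcgr3, an Fc receptor of myeloid cells and natural killer cells, had 2 sites of an RSINE1 copy, with 47 of 50 and 52 of 56 altered reads in EC1 CON and 63 of 74 and 56 of 64 in EC2 CON. In TM only 9 and 10 reads covered them in EC1 and 10 each in EC2, of which 6, 7, 8 and 8 were altered, and the edgeR adjusted p values were 0.438 and 0.421. Both sites were CON > TM in both mice by the rate rule. Adamts4, a secreted metalloproteinase, had 36 of 72, 8 of 18, 63 of 119 and 33 of 59 (log2 odds ratio 0.03, edgeR adjusted p = 0.984). The leukocyte marker counts are those given above, with a summed range of 39 to 70, and their part in the Fcgr3 coverage was not tested.

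Among the intronic sites, Klc1 and Mark3 had the most altered reads in CON, and neither was called. Klc1, a kinesin light chain, had 31 of 67, 20 of 50, 32 of 60 and 33 of 70 altered reads (log2 odds ratio -0.36, edgeR adjusted p = 0.712). Mark3, a kinase of microtubule-associated proteins, had 26 of 42, 26 of 58, 32 of 52 and 39 of 65 (-0.52, adjusted p = 0.621). The exonic ID_B1 site of 6430706D22Rik had 17 of 91, 13 of 69, 25 of 137 and 25 of 114 (0.21, adjusted p = 0.863).

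Clusters of sites in 1 element were rare: 366 elements had 1 member site, 67 had 2, 7 had 3, 2 had 5 and 3 had 7. Of the 79 elements with 2 or more, 29 had a higher mean rate in CON in both mice, 10 a higher mean in TM in both, and 40 neither. The 3 densest were 2 RSINE1 copies of Slc35e1 and an ID_B1 copy at Lmbrd2, with 7 sites each, and mean rates were higher in CON in both mice in all 3. In the RSINE1 copy of Slc35e1 that holds position 72478776 the mean over its sites was 0.108, 0.0270, 0.128 and 0.0389. Sites that a library does not list count as 0 in these element means, and 6, 2, 7 and 6 of its 7 sites were listed.

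At Lmbrd2, in a region annotated as 3′ distal (chr15:9199459-9199587), the means were 0.108, 0.0517, 0.126 and 0.0367, with 6, 4, 7 and 4 of its 7 sites listed and the others taken as 0. Its best covered site over the 4 libraries, 9199499, had 10 of 38, 6 of 35, 11 of 55 and 7 of 54 altered reads. The sites at 9199472 and 9199473 had 5 of 31, 3 of 25, 10 of 45 and 4 of 46, and 5 of 34, 1 of 24, 6 of 43 and 1 of 46. None of its sites was called by edgeR. The 5 sites of the Prrg4 copy had means of 0.0912, 0.0225, 0.0997 and 0.0355, with 5, 4, 5 and 5 of them listed.

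Map4k4, a serine/threonine kinase, gave the contrasting case of an intronic RSINE1 copy with 5 sites at intermediate rates. Its means were 0.424, 0.392, 0.277 and 0.437, with the order of CON and TM opposite in the mice. The first of its sites had 26 of 42, 25 of 52, 12 of 44 and 28 of 56, and the next 27 of 45, 26 of 53, 13 of 44 and 30 of 59. The 3 intronic sites of Med15, a Mediator subunit, printed above, were lower and thinner: 3 of 27, 1 of 27, 6 of 21 and 3 of 28 at the last capital, and 6 of 30, 4 of 29, 4 of 26 and 4 of 31 at the first.

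The other named elements were mixed. Their means again take unlisted sites as 0. Fn1 (fibronectin) and Rab43, a small GTPase, had higher means in CON in EC1 and in TM in EC2. In EC1 TM, 1 of the 3 Fn1 sites was listed. Rnaseh2a, the catalytic subunit of ribonuclease H2, had 0.262, 0, 0.0769 and 0.188. In EC1 TM 0 of its 3 sites were listed, so its direction in EC1 is unknown. Coq10a, a coenzyme Q binding protein, had slightly higher means in TM in both mice, at 0.259, 0.3, 0.111 and 0.122. Of its 3 sites, 3, 2, 1 and 2 were listed, so this order depends on the unlisted sites. Ccdc106 was higher in TM in EC1 and in CON in EC2. Alkbh1, a DNA and RNA demethylase, was higher in CON in both, at 0.317, 0.167, 0.571 and 0.302, on at most 7 reads per site and library.

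**Figure D5:**
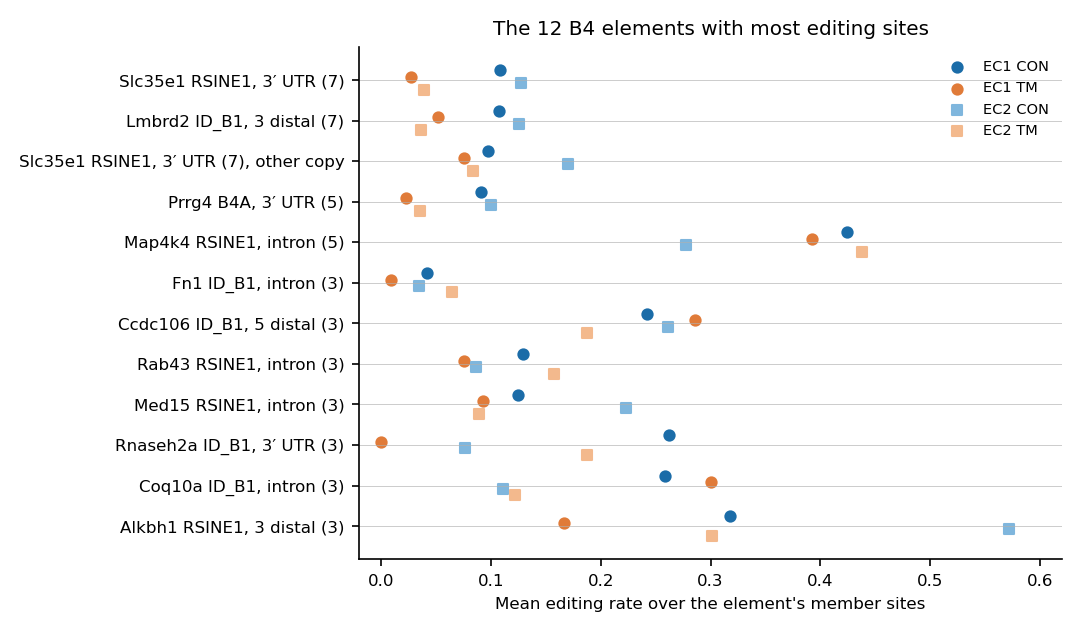
Mean editing rate (x axis) over the member sites of each of the 12 B4 elements with most sites (y axis, gene, element name, annotation and number of sites), 1 point per library. Sites that a library does not list are drawn as 0. The Slc35e1, Lmbrd2 and Prrg4 copies have both CON libraries above the TM library of the same mouse. Map4k4, Fn1, Ccdc106 and Rab43 go opposite ways in the mice, with 1 of the 3 Fn1 sites listed in EC1 TM. Rnaseh2a has 0 of its 3 sites listed in EC1 TM, so its direction in EC1 is unknown.

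Among the 48 sites that were CON > TM in both mice, the intronic site of Copa, the coatomer subunit alpha, had 14 of 33, 6 of 30, 20 of 42 and 8 of 30 altered reads (edgeR adjusted p = 0.128). A pair of sites in 1 ID_B1 copy of Elavl1, which encodes the RNA-binding protein HuR, had 10 of 19, 4 of 18, 10 of 16 and 5 of 21 (adjusted p = 0.0511) and 5 of 25, 2 of 22, 3 of 18 and 2 of 18 (adjusted p = 0.658). Neither gene was called by edgeR. Among the 16 sites that were CON < TM in both mice, F11r, the junctional adhesion molecule A, had 12 of 37, 19 of 31, 9 of 24 and 9 of 20 (adjusted p = 0.279), and Cnn3, a calponin, 6 of 14, 10 of 13, 3 of 9 and 12 of 21 (adjusted p = 0.288). The B4A site of B230319C09Rik at the second capital of its sequence had 11 of 29, 8 of 14, 3 of 9 and 15 of 26 (adjusted p = 0.443). These sites were named after their values were seen.

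The surroundings of the elements were described with the passing B1 and B2 sites within 1000 bases. Elements with a single member site had at least 1 such neighbour in 57 of 366 cases (15.6%), and those with 2 or more in 24 of 79 (30.4%). In 3′ UTRs the share was 11 of 31 (35.5%) and in introns 49 of 324 (15.1%). Among the 37 elements with a site that was CON > TM in both mice it was 15 (40.5%), and among the 15 with a CON < TM site it was 2 (13.3%). The RSINE1 copy of Slc35e1 at chr8:72480211-72480364 had 8 B1 sites in this range and the Fn1 copy 9. A SINE in the opposite orientation with any listed site, passing or not, separated the groups less. It lay within 1000 bases of 22 of the 37 elements with a CON > TM site (59.5%) and 8 of the 15 with a CON < TM site (53.3%). In 3′ UTRs this was 17 of 31 elements (54.8%) and in introns 123 of 324 (38.0%). A neighbour can pass only where reads cover it, and coverage was higher in 3′ UTRs.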

How the data were processed

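RNA-seq libraries of 4 EC cultures were analysed, CON and TM of 2 mice. The members and lists were chosen with earlier results of these data known. Per the labels and the study's methods, libraries were made with ribosomal RNA depletion; reads were trimmed with Trimmomatic 0.38, aligned with STAR 2.6.1a and counted per gene with HTSeq 0.11.2 (submitters' processing notes; mm10/GRCm38). The authors called mismatches with BCFtools mpileup and deposited, for each site and library, the count of reference reads, the count of altered reads and the fraction altered (the editing rate), with annotation of gene regions and repeats. Library columns of the site table were matched to samples by mouse and treatment in their names and in the study's site list. Rows naming no gene were left out of gene counts and took 99.1 to 99.2% of them.

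From these counts, members, mean rates and differences were computed with Python 3.11.15 and pandas 2.3.3, Fisher's exact test with SciPy 1.17.1, Wilson intervals with statsmodels 0.14.6, and the replicated test with edgeR 4.0.16 in R 4.3.3 (adjusted p threshold 0.05, at least 5 reads). Scripts were tested on simulated data. Same-numbered libraries pair because both came from 1 mouse. Each library came from 1 culture. Fisher's tests cover counting error only, and the blocked edgeR fit had 1 residual degree of freedom and a common dispersion of 0.0045 (0.138 without the block). Elements are given from the first base after the listed start; 3 members lie 1 base before it. Named were the 12 elements with most member sites, every site called by the replicated test, and the 10 sites with most altered reads in CON that pass in both CON libraries; exceptions are marked. Alternatives changed depth, altered reads, rate limits, difference, weighting, pairing and libraries. Intervals cover counting error only.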

Additional observations from a re-analysis of the deposited data

How the results depend on the processing

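The number of members was 552, 204 with a depth of at least 20 and 304 with at least 5 altered reads, and 341 to 384 in 1 mouse alone. The fall in the mean B4 rate kept its direction in every alternative run, from 0.0217: 0.0278 and 0.0408 with a depth of at least 10 and 20, 0.0269 with at least 5 altered reads, 0.0260 with sites listed in both libraries, 0.0527 weighted by reads, 0.0141 with elements averaged first, and 0.0338 with sites chosen in the other mouse (0.0271 when also listed in both libraries, an alternative added after seeing the data); it was 0.0192 to 0.0243 in 1 mouse alone. Sites CON > TM in both mice numbered 48, 26 with a depth of at least 20, 22 with a difference of at least 0.10, and 149 to 164 in 1 mouse alone. Sites CON < TM in both mice numbered 16, 8 and 3 with a depth of at least 10 and 20, 9 with at least 5 altered reads, 10 with a difference of at least 0.10, 9 with sites listed in all 4 libraries, and 93 to 125 in 1 mouse alone. The 7 sites lower by edgeR with the mouse as a replicate block became 0 without the block, 0 to 0 when 1 library was left out without the block, and 1 without the rate and altered-read filter, which added sites with few altered reads to the 7407; the other alternatives gave 6 to 9, and none higher in TM in any of them. Sites lower by reads in EC2 numbered 4, 7 with a depth of at least 20, and 8 with unlisted sites taken at 0 altered reads. The causes of these changes were not tested. Depth limits single sites, since the median was 13 to 15 reads at passing sites and 407 members were not reached by the replicated test.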
